A study of Caenorhabditis elegans with 2 samples.

Results

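The genes described here are 8 members of the basic helix-loop-helix leucine zipper (bHLH-zip) network of Caenorhabditis elegans, taken by name from the 19973 protein-coding genes on the nuclear chromosomes. They are hlh-30, mxl-1, mxl-2, mxl-3, mml-1, mdl-1, hlh-11 and sbp-1. The question put to the data was where HLH-30 protein was found at these genes, its own gene among them. The chromatin came from late embryos of hermaphrodite strain OP433, which carries the allele unc-119(tm4063) on chromosome III and the integrated transgene wgIs433, a source of HLH-30 with GFP and FLAG fused at the C terminus. DNA bound by the fusion was recovered with an anti-GFP antibody in 2 biological replicates. No other strain, stage or treatment was part of the series, so the members could be compared with other genes and between replicates but not between conditions.

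Proteins of this family bind E-boxes, which are short DNA words, as dimers. The palindrome CACGTG is a form of the E-box, and not every member need prefer it. HLH-30 is the worm relative of mammalian TFEB, which turns on autophagy and lysosome genes in poor nutrition. MML-1 is the worm Mondo protein, related to the glucose-responsive factor ChREBP, and it pairs with MXL-2, the worm Mlx. MXL-1 is a Max-like protein that pairs with the Mad-like repressor MDL-1. MXL-3 is a further Max-like protein, known for repressing lipase genes in fed worms where HLH-30 activates them under fasting. HLH-11 is related to mammalian TFAP4 and acts in fat metabolism, and SBP-1 is the worm SREBP, a regulator of fatty acid synthesis genes.

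Each peak has a summit, the base at which enrichment was highest, and a signal, the authors' own enrichment value against a control. The authors deposited a list for each replicate, with 11695 and 30000 peaks, and a list from both replicates pooled, with 18832. They also deposited an optimal list of 1959 peaks, made with a test of reproducibility between replicates. All optimal peaks were also in the pooled list with the same signal, so these lists are not independent of each other. Signal scales differ between lists, and ranks (1 is the strongest) are given within each list. The number of reads behind the lists is not known here. Expression was not measured, and the cells of the embryo that contributed each peak cannot be told apart. All positions are in build ce11, counted from 1, and each member's window ran from 5000 bp upstream of its start to its annotated end.

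The sequences below lie within 50 bp of selected summits. They are read 5′ to 3′ on the strand of the gene, from the RefSeq sequence of WBcel235, the assembly of ce11. Capitals mark CACGTG and the related word CATGTG or its complement CACATG. The first 5 are the optimal summits that hold CACGTG. The next pair are optimal summits without a whole copy in the printed stretch. That of hlh-11 opens inside a copy cut by its edge. The optimal mdl-1 summits 4702, 3133 and 1194 bp upstream also have no CACGTG within 50 bp and are not printed. The last pair come from the pooled list only.
mdl-1, 103 bp upstream, chrX:6742198-6742298, plus strand: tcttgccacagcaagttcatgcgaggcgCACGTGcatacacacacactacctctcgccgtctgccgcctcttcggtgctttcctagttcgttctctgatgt
mdl-1, 609 bp upstream, chrX:6741692-6741792, plus strand: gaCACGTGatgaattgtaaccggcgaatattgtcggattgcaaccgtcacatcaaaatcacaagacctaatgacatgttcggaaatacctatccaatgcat
mdl-1, 668 bp downstream, chrX:6742969-6743069, plus strand: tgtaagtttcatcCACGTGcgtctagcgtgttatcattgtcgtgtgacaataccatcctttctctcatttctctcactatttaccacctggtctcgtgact
mml-1, 378 bp upstream, chrIII:7375059-7375159, minus strand: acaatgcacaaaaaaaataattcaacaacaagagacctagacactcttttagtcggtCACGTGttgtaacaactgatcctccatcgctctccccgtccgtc
mml-1, 1818 bp upstream, chrIII:7376499-7376599, minus strand: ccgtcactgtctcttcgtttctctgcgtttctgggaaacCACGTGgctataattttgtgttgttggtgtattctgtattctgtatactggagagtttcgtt
hlh-11, 499 bp upstream, chrIII:9619162-9619262, plus strand: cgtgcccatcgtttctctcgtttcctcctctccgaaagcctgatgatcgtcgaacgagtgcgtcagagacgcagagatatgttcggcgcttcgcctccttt
sbp-1, 2385 bp upstream, chrIII:11444901-11445001, minus strand: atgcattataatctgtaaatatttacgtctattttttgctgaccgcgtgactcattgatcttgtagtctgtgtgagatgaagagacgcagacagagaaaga
mxl-2, 317 bp upstream, chrIII:188398-188498, minus strand: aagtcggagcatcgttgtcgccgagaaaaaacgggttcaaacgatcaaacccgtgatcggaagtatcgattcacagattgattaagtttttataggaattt
mxl-3, 4068 bp upstream, chrX:13354822-13354922, minus strand: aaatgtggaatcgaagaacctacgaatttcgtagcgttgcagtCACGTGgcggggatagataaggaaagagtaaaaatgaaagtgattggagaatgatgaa

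HLH-30 peaks were present at 4 of the 8 genes in the optimal list, mdl-1, mml-1, hlh-11 and sbp-1, with 10 summits in all. Of all protein-coding genes, 15% had an optimal summit in the same kind of window, a share not matched for window length. The windows of mml-1, hlh-11 and sbp-1, at 9602, 11819 and 19200 bp, were longer than the median of all genes, 7027 bp. That of mdl-1, 6549 bp, was shorter. Within 1000 bp upstream to 200 bp downstream of an annotated start, 3 of the 8 had a summit, mdl-1, mml-1 and hlh-11, against 6.65% of all genes. The median member had 0.5 optimal summits in its window and the median gene 0. The members were chosen with earlier results of these data known, so no test of the group was made.

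Of the 10 summits, 9 were intergenic and 1 lay in an intron. The nearest protein-coding start was that of the member itself for 9 of them. The 10 had a median signal of 108.8, against 72.7 over the optimal list. Each had a summit within 100 bp in both replicate lists, at most 61 bp away in replicate 1 and 67 bp away in replicate 2. All 10 were also among the 1959 strongest peaks of either replicate alone. Each of the 10 had the same rank in the optimal list as in the pooled list, whose signal was drawn from both replicates. The optimal list also rests on a test of agreement between these replicates. Agreement between them therefore cannot be read as a trait of the members. Apart from signal, these properties were not counted over the whole optimal list.

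**Figure D1:**
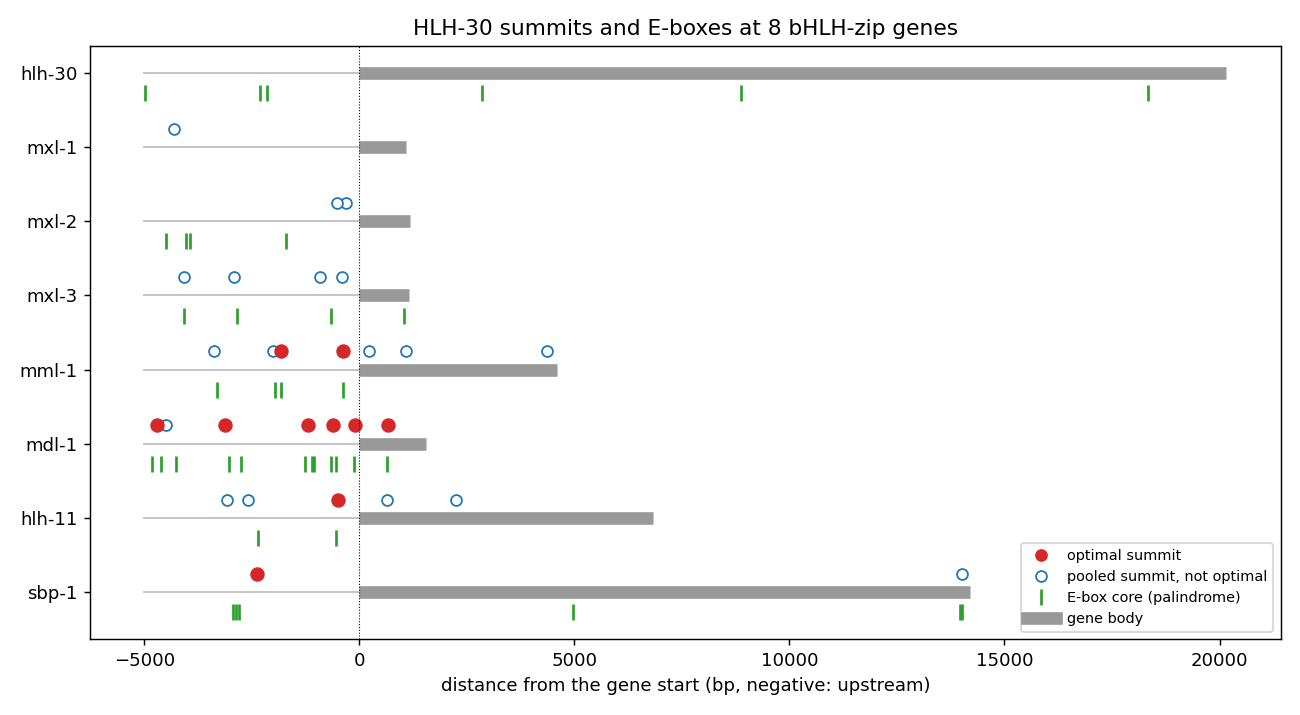
HLH-30 summits (circles) and CACGTG words (green ticks) from 5000 bp upstream of each gene's start to its end, against distance from the start in bp, with gene bodies as grey bars. Filled red circles are optimal summits, of which mdl-1 has 6, mml-1 has 2 and hlh-11 and sbp-1 have 1 each, and hlh-30 has no circle.

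mdl-1, the gene of the Mad-like repressor, had 6 optimal summits in a window of 6549 bp. Only 5 of 19973 genes, 0.0250%, had 6 or more. The other 4 were T28B11.1 and mnk-1 with 8 summits each and ppfr-1 and ret-1 with 6 each. Their windows were longer, from 17624 to 30884 bp. The density at mdl-1 was 9.16 optimal summits per 10 kb, against 0.195 over the genome.

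The strongest mdl-1 summit lay 103 bp upstream of the start (X, 6742351 to 6743899 for the gene), with signal 181 and rank 207 in the optimal list. It had signal 41.3 and rank 470 in replicate 1, and signal 138 and rank 154 in replicate 2. The summit in the intron, 668 bp downstream of the start, had signal 116 and rank 430, with rank 495 in replicate 1 and 431 in replicate 2. Both carry CACGTG, as printed above.

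Further upstream, the summit at 4702 bp had signal 107 and rank 515 in the optimal list, with rank 372 in replicate 1 and 621 in replicate 2. It is the member summit whose nearest start belonged to another gene, R03E9.2, 4348 bp away. The summit at 1194 bp had signal 105 and rank 522, with signal 23.9 and rank 1251 in replicate 1 and signal 82.3 and rank 371 in replicate 2. The summit at 609 bp had signal 88.6 and rank 699, with rank 535 in replicate 1 and 831 in replicate 2. The weakest, at 3133 bp, had signal 49.5 and rank 1839, close to the lowest signal of the optimal list, 47.7. The replicates placed the summits alike but ordered them differently. In replicate 1 the summit at 4702 bp was the strongest, with signal 47.4, and in replicate 2 that at 103 bp was.

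**Figure D2:**
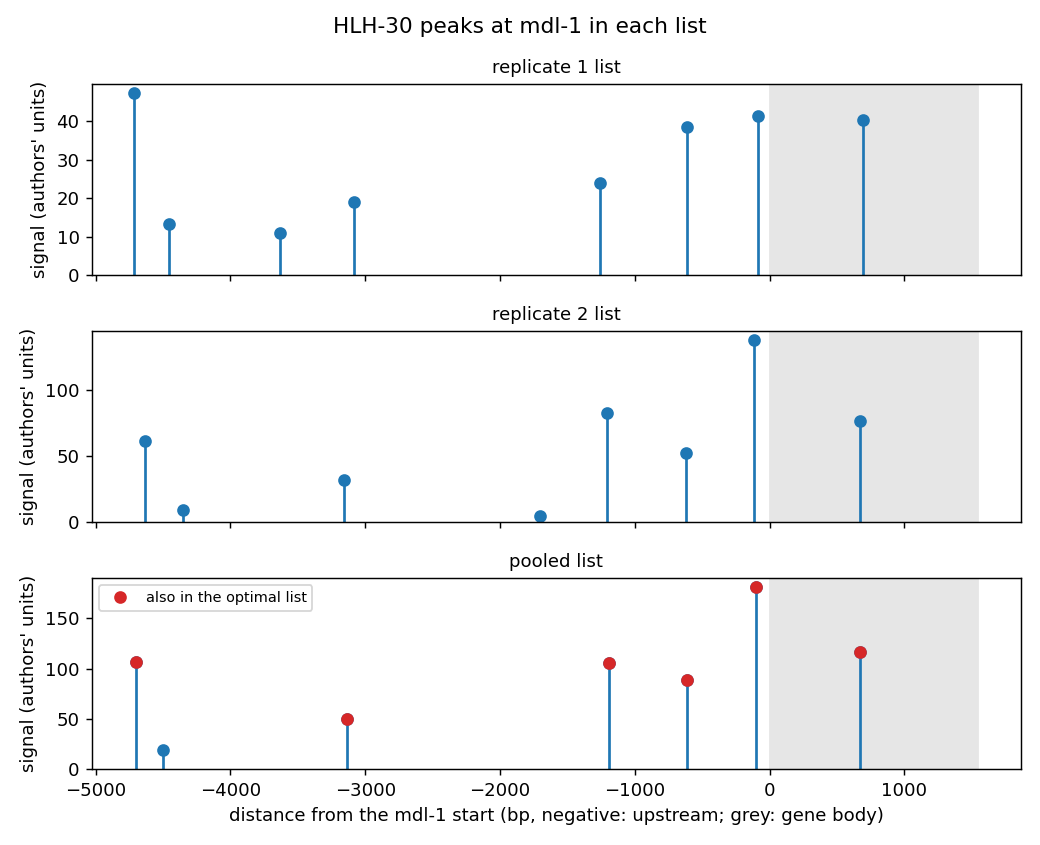
Peak signal in the authors' units at mdl-1, against distance from its start in bp, in the replicate 1, replicate 2 and pooled lists, each with its own signal scale. Each line is 1 summit, the grey area is the gene body, and red points are the 6 summits that are also optimal. Replicate 2 is highest 112 bp upstream of the start, and replicate 1 is highest 4712 bp upstream.

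mml-1, the gene of the Mondo protein, had 2 optimal summits, a number reached by 2.12% of all genes. Its gene lies on III, 7370130 to 7374731. The stronger summit was 1818 bp upstream of the start, with signal 163 and rank 251 in the optimal list, signal 56.7 and rank 264 in replicate 1, and signal 106 and rank 251 in replicate 2. The summit 378 bp upstream had signal 114.6 and rank 443, with signal 53.1 and rank 309 in replicate 1 and signal 58.0 and rank 684 in replicate 2. In replicate 1 their signals were close, and in replicate 2 the upstream summit was the higher. Another 5 pooled summits in the mml-1 window had signals from 13.3 to 29.4, and none of these 5 was matched in both replicates. The strongest of these 5 lay in a coding exon of T20B12.7, whose start was the nearest, 946 bp away. That of signal 14.9 had T20B12.4 as the nearest start.

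hlh-11, the TFAP4-like gene (III, 9619711 to 9626529), had 1 optimal summit, 499 bp upstream of its start. Its signal was 111 and its rank 474, with signal 35.9 and rank 607 in replicate 1 and signal 75.3 and rank 441 in replicate 2. The gene has 6 annotated starts spread over 2763 bp, and a weak pooled summit, of rank 12881 and signal 15.7, lay 178 bp upstream of an internal start. That weak summit was matched in replicate 2 only. The other pooled summits in the window were stronger than it and were matched in both replicates. They lay 3067 and 2587 bp upstream of the gene start, with signals of 25.4 and 25.1 and hcp-3 as the nearest start. The last lay in an intron 646 bp downstream, with signal 20.6.

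sbp-1, the SREBP gene (III, 11428367 to 11442566), had its optimal summit 2385 bp upstream of the start, outside the near-start window. Its signal was 78.6 and its rank 862, with rank 570 in replicate 1 and 1196 in replicate 2. sbp-1 was the nearest gene start. A pooled summit of rank 14807 and signal 14.4 lay in a coding exon 14021 bp downstream of the start, where CACGTG occurs as a pair of copies. It was matched in replicate 2 only, and its nearest start was that of idpc-1, 1339 bp away.

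The genes of the 3 Max-like and Mlx proteins had no optimal summit. In the pooled list all 3 had summits in their windows, as did 7 of the 8 members, against 71.4% of all genes. Near a start, 5 of the 8 had a pooled summit, against 33.1%. By replicate, 6 of the 8 had a summit in the window in replicate 1, against 57.0% of all genes, and 7 in replicate 2, against 82.9%. The pooled and replicate lists include background regions, so a summit in them is weaker information than an optimal one.

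mxl-2, the gene of the MML-1 partner, lay just outside the optimal list. Its stronger pooled summit, 317 bp upstream of the start (III, 186949 to 188131 for the gene), had signal 46.1 and rank 2054, where the optimal list ended at 1959. A second one, 529 bp upstream, had signal 32.5 and rank 3672. Replicate 1 held both, with signals of 20.3 and 23.1 and ranks of 1637 and 1329. Replicate 2 held a single summit between them, 370 bp upstream, with signal 26.5 and rank 2680. The nearest start to the second summit was that of ubc-20, a ubiquitin-conjugating enzyme gene transcribed the other way, at 178 bp, so the peaks sit between the starts of both genes. Neither summit has CACGTG or CATGTG within 50 bp.

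mxl-3, the lipase repressor gene (X, 13349639 to 13350804), had 4 pooled summits with signals from 13.6 to 43.8. The strongest, 4068 bp upstream, had rank 2223, with signal 21.0 and rank 1550 in replicate 1 and signal 17.2 and rank 5600 in replicate 2, and it carries CACGTG. The next, 2914 bp upstream, had signal 32.6 and rank 3662. That nearest to the start, at 408 bp, had rank 7661 and CATGTG within 50 bp, and was matched within 100 bp in replicate 1 only. The weakest, at 912 bp, had no summit within 100 bp in either replicate list.

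mxl-1, the gene of the MDL-1 partner (V, 11244839 to 11245926), had 1 pooled summit, of signal 15.2 and rank 13504. It lay 4313 bp upstream, in a coding exon of ima-1, an importin alpha gene. Replicate 2 had it with signal 12.7 and rank 8957, and replicate 1 had no summit in the mxl-1 window. The mxl-1 window also has no CACGTG. Of the partners, then, MDL-1 was encoded by the member with the most summits and MXL-1 by a member with none near its start.

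**Figure D3:**
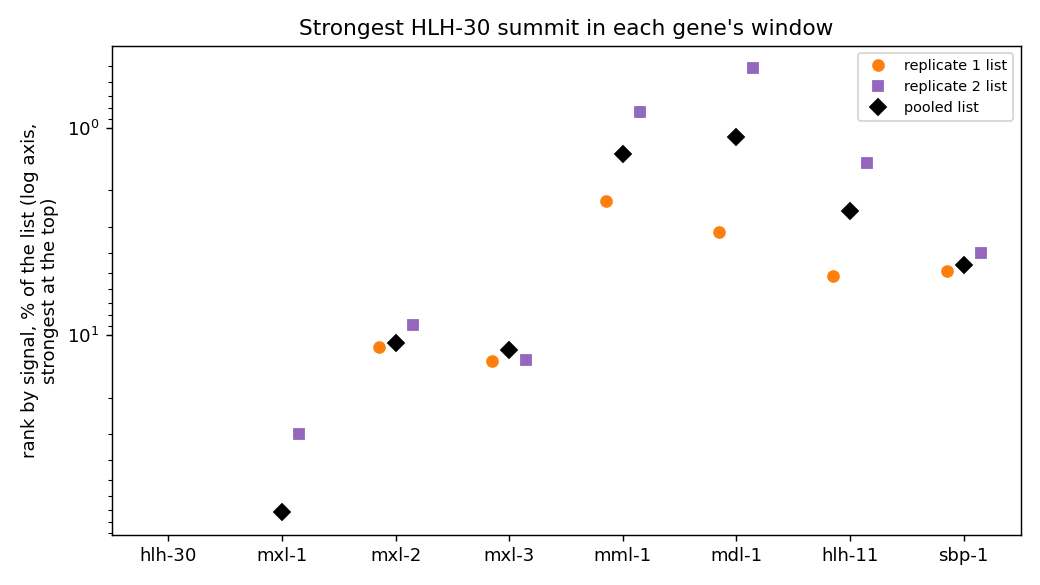
Rank of the strongest summit in each gene's window as a percent of its list, on a log axis with the strongest at the top, for the replicate 1, replicate 2 and pooled lists. In the pooled list mdl-1 is at 1.10%, mml-1 at 1.33%, hlh-11 at 2.52% and sbp-1 at 4.58%, mxl-2 and mxl-3 are at 10.9% and 11.8%, and mxl-1 is at 71.7%. hlh-30 has no point, and mxl-1 has none in replicate 1.

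In the pooled and both replicate lists, the strongest summits of the 4 genes with optimal summits were above those of the Max-like and Mlx genes that had any. That order was largely set by the grouping itself, since optimal summits carry the pooled signal and rank. The replicate lists are not independent of it, because the pooled list was made from both replicates. Among the 4 genes with optimal summits the order changed. In replicate 1 it was mml-1, mdl-1, sbp-1 and hlh-11, with strongest ranks of 264, 372, 570 and 607. In replicate 2 it was mdl-1, mml-1, hlh-11 and sbp-1, with strongest ranks of 154, 251, 441 and 1196. With 2 replicates, the order of mdl-1 and mml-1 and that of hlh-11 and sbp-1 were thus not settled.

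**Figure D4:**
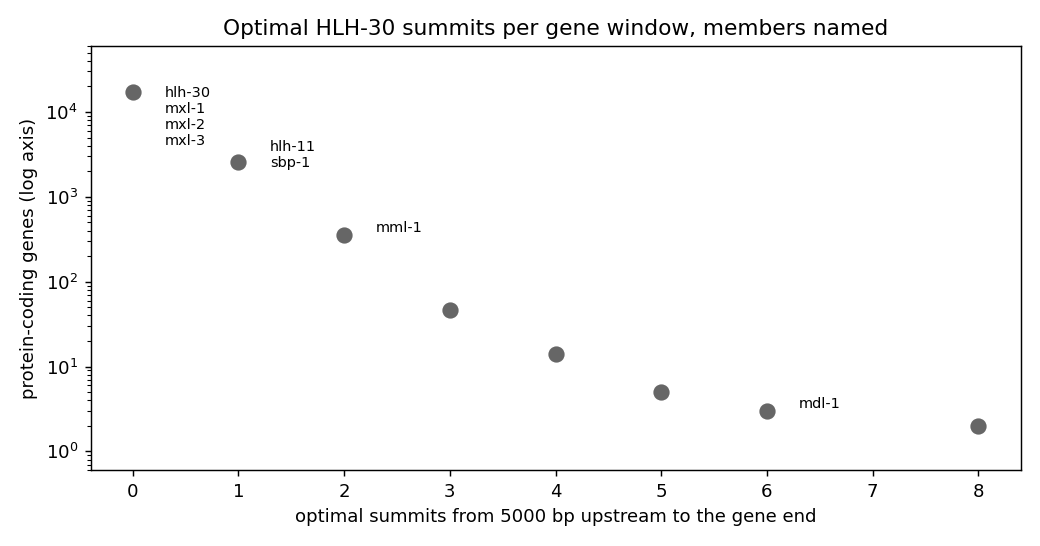
Number of protein-coding genes (log axis) by the number of optimal summits in the window from 5000 bp upstream to the gene end. Of 19973 genes, 16968 had 0, hlh-30 and the 3 mxl genes among them, and mdl-1 is 1 of 3 genes with 6.

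hlh-30, the tagged gene (IV, 4014793 to 4034951), had no summit of any of the 4 lists in its window of 25159 bp. The strain also carries the tagged transgene, whose extent and copy number are not given in the labels, and the coverage of the control at the locus was not analysed here. The absence of a called peak here is therefore not a measurement of absent binding. Of all genes, 12.4% had none in any list. Of the 404 genes with windows of 20000 bp or more, 0.495% had none, which is 2 genes, hlh-30 and cubn-1. At the genome's density, a window of this length would hold 4.73 pooled summits, 2.93 of replicate 1 and 7.53 of replicate 2.

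The stretch without summits, to which the same limit applies, reached well beyond the gene and had nearly the same edges in 3 lists. In replicate 2, neighbouring summits lay at 3997224 and 4049710 on IV, a distance of 52486 bp. In replicate 1 they lay at 3997216 and 4049661, 52445 bp apart, and in the pooled list at 3997187 and 4049660, 52473 bp apart. The distance ranked 11 of 29994 between neighbouring summits in replicate 2, 28 of 18826 in the pooled list and 91 of 11689 in replicate 1, with medians of 1948, 3008 and 4930 bp. In the optimal list the nearest summits lay 189882 bp beyond the gene's end and 355676 bp upstream of its start, and this distance of 565716 bp ranked 2 of 1953.

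**Figure D5:**
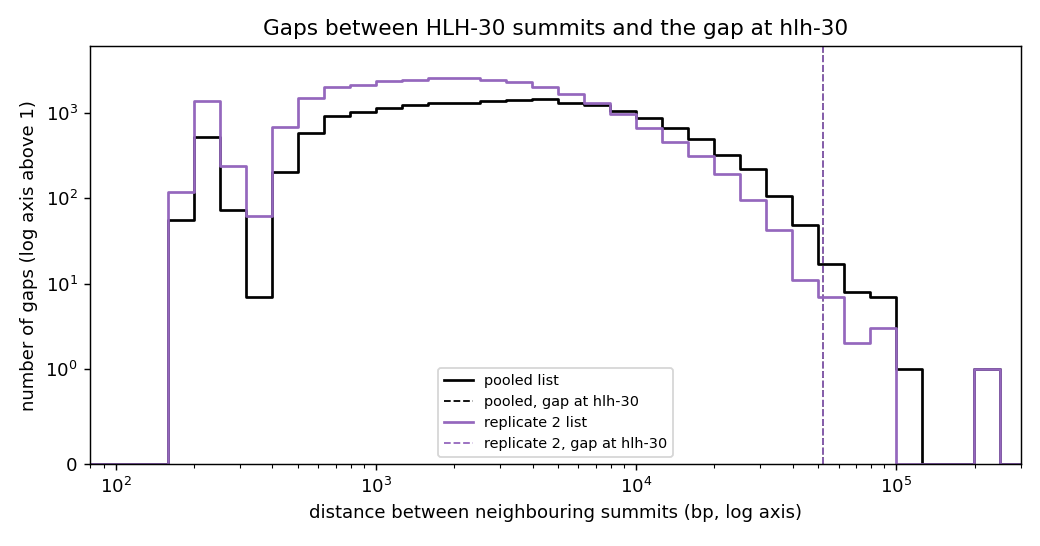
Number of gaps between neighbouring summits (log axis above 1) by gap length in bp (log axis), for the pooled and replicate 2 lists. Dashed lines, which overlap, mark the gaps over hlh-30, 52473 and 52486 bp, in the far right tail of both curves.

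E-boxes were present at both optimal summits of mml-1 and at some of those of mdl-1. CACGTG lay within 50 bp of 5 of the 10 optimal member summits, both at mml-1 and 3 at mdl-1, against 21.8% of all optimal summits and 2.20% of flanking windows 500 bp away. The extended word TCACGTGA, at 6.02% of all optimal summits, was at none of the 10. CATGTG, at 17.1% of all, was also at none. GAGAGA or its complement, at 588 of all 1959, was at 4 of the 10, which were 3 of mdl-1 and that of hlh-11. The words were searched on both strands, and the longer word contains CACGTG.

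Within 100 bp, CACGTG was at 7 of the 10. The added summits were those of hlh-11, where the word centres 548 bp upstream of the start, and of mdl-1 at 1194 bp. The summit of sbp-1 and those of mdl-1 at 4702 and 3133 bp had none within 100 bp. At mdl-1 this depended on where each list placed the summit. The replicate 2 summit matched to that at 4702 bp, 4635 bp upstream, has CACGTG within 50 bp. A copy lay within 100 bp of the replicate 1 summit matched to that at 3133 bp. The replicate 1 summit matched to that in the intron, 696 bp downstream, has none within 50 bp. Within 25 bp CACGTG was at 3 of the 10. Shares over all optimal summits were counted within 50 bp only, so the counts at 100 and 25 bp have none beside them.

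The mdl-1 window holds 12 copies of CACGTG. Only 48 genes of 19973, 0.240%, had as many in their windows, and the median gene had 1. By density, 18.3 per 10 kb, 4 genes including mdl-1 were at or above its level, against 1.77 per 10 kb over the genome. Of the 12, 6 lay within 100 bp of an optimal summit, a number reached by 2 genes in all, mdl-1 being 1 of them. Summits and words are both dense at mdl-1, and a word near a summit is a description of place, not a measured contact.

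Over all 8 windows, 9 of 38 copies of CACGTG, 23.7%, lay within 100 bp of an optimal summit, against 569 of 17729, 3.21%, over the genome. By gene, the count was 6 of 12 at mdl-1, which gave most of the 9, 2 of 4 at mml-1, 1 of 2 at hlh-11 and 0 of 6 at sbp-1. It was 0 of 4 at both mxl-2 and mxl-3. In the pooled list, 15 of the 38 copies, 39.5%, lay within 100 bp of a summit, against 24.2% over the genome. These were 6 of 12 at mdl-1, 4 of 4 at mml-1, 2 of 4 at mxl-3, 2 of 6 at sbp-1 and 1 of 2 at hlh-11, with 0 of 4 at mxl-2. hlh-30 had 6 copies, of which 3 were upstream of its start and 3 inside the gene, and none was within 100 bp of a summit in any list, which at this locus does not show that they were unbound.

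In promoters, taken as 250 bp before to 50 bp after the gene start, CACGTG was present for 1 of the 8, mdl-1, against 5.82% of all protein-coding genes. CATGTG was present for none, against 9.97%. GAGAGA was present for 3, hlh-30, mdl-1 and hlh-11, against 21.8%.

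Other genes of the bHLH superfamily had no optimal summit near a start, 0 of 32, against 6.65% of all genes. In their wider windows, 3 of the 32 had an optimal summit, 9.38% against 15% of all genes. These were hlh-2, the worm E protein, hlh-27, and hif-1, the hypoxia-inducible factor. Near a start in the pooled list 8 of the 32 had a summit, 25% against 33.1%. The strongest was that of aha-1, at rank 2715, whose product is the partner of the hypoxia-inducible factor and the aryl hydrocarbon receptor.

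Of 21 genes known as partners, regulators or reported targets of HLH-30, MML-1 and SBP-1, 6 had an optimal summit near a start, 28.6% against 6.65% of all genes. The strongest was at xpo-1, the exportin that carries HLH-30 out of the nucleus, with signal 243 and rank 122. Next came 4 genes of the TOR pathway, which holds TFEB-family proteins in the cytoplasm, with rheb-1 at signal 134 and rank 333, flcn-1 at 91.0 and rank 665, daf-15 at 85.5 and rank 748 and ragc-1 at 69.9 and rank 1040. The sixth, fat-6, a fatty acid desaturase gene downstream of SBP-1, had signal 62.2 and rank 1277, and the nearest start to that summit was of ZK822.9. The other 15 had no optimal summit near a start. Among them were let-363, the TOR kinase gene, and raga-1, a Rag GTPase gene, both of the TOR pathway, and the lipase genes lipl-1, lipl-3 and lipl-5. The rest were mdt-15 and scp-1, whose products work with SBP-1, the transcription factor genes daf-16, skn-1 and pha-4, and the lipid and methionine metabolism genes fasn-1, pod-2, fat-5, fat-7 and sams-1. Of the 15, let-363, daf-16 and skn-1 had optimal summits in the wider window, 2 at let-363 and 1 each at the others. This list and that of the other bHLH genes were drawn up with earlier results of these data known, so their shares are description only.

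By the ranks of the strongest near-start summit in both replicate lists, over 3872 genes that had one in each, the gene closest to mml-1 (ranks 309 and 684) was B0513.4 (307 and 699). The gene closest to hlh-11 (607 and 441) was rpl-1, a ribosomal protein gene (620 and 454). The gene closest to mdl-1 (470 and 154) was srh-2, of a chemoreceptor family (389 and 133). Likeness is the distance between pairs of ranks on a log10 scale over 2 replicates, and it describes only these lists.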

How the data were processed

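HLH-30 binding was measured by ChIP-seq in 2 biological replicates of a single group. The authors deposited narrowPeak lists whose signal is their value per peak against a control, per the README files they deposited. The authors pooled both alignments for the pooled list and made the optimal list by IDR, per the same files. The aligner, peak caller, filters and IDR threshold have no statement among the labels or headers (not given in the sources used here); the depth of each replicate is unknown. Here the ce11 lists were read with Python 3.11.15, numpy 2.4.6 and pandas 2.3.3. Summits were placed against Ensembl 115 gene models of WBcel235, and bases came from the RefSeq assembly. Summits were matched between lists within 100 bp. The counting steps were tested on simulated data. The ce10 lists were not used, since coordinates were not converted, and a planned comparison of member proteins was not run.

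The members and gene lists were chosen with earlier results of these data known, so shares stand beside those of all genes and no p-value is given. The genes named are the 8 members and the gene of the nearest start to optimal and pooled summits in their windows. Also named are listed genes with an optimal summit near a start, and the gene closest in replicate ranks to each member with such a summit. The bHLH genes named for wider windows or pooled peaks, the genes with 6 or more summits, cubn-1 and the listed genes without an optimal summit near a start were named after their values were seen. Alternatives were each replicate alone, other peak thresholds, windows, word distances and match distances.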

Additional observations from a re-analysis of the deposited data

How the results depend on the processing

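Of 27 alternative values for the 5 counts, 21 were within 1.5 times of the reported count. The whole pooled list, which includes background, gave 7 members with a summit in the window in place of 4, 5 near a start in place of 3, and 8 other bHLH genes in place of 0. The other bHLH count was 1 when near a start meant 2000 bp before to 500 bp after it. With the 1959 strongest peaks of a single replicate in place of the optimal list, the members in the window numbered 4 without replicate 1 and 6 without replicate 2, where mxl-2 and mxl-3 were added. Near a start they numbered 3 and 4, the other bHLH genes 1 and 0, and member summits with CACGTG 6 and 6. Within 25 bp of the summit CACGTG was at 3 member summits in place of 5. With summits matched within 50 bp, 7 of 10 were matched in both replicates. No paired analysis was possible because there is a single group. Unknown depth limits what the absence of a summit can show.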

Other observations

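The sequences at the hlh-11 and sbp-1 summits, which hold no whole CACGTG within 50 bp, share the word GAGACGCAG. They are not alike in CACGTG, since at hlh-11 a copy centred 548 bp upstream of the start is cut by the window's edge. The shared word was noticed after the sequences were read and was not tested. Over the optimal list the word or its complement lay within 50 bp of 244 of 1959 summits, 12.5%, against 0.613% of flanking windows, and among the 10 member summits at these 2. Its part ACGCAG was also at the mml-1 summit 1818 bp upstream, so 3 of 10 member summits held it, against 20.5% of all optimal summits.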
